A study of Mus musculus with 15 samples.

Results

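The members described here are 53 developmental transcription factor genes: homeobox genes that lie outside the Hox clusters, with the related Pax genes, some of which, such as Pax9, encode a paired domain without a full homeodomain. They were taken as a fixed list of names, and every CpG position inside the RefSeq (GRCm38.p6) span of a gene or within 2 kb of it was assigned to that gene. The list is 53 of 21631 protein-coding genes, and its regions held 3347 of the 455836 measured CpG positions (0.734%). Per gene the number ran from 9 positions in Lhx8 to 221 in Pax2, with a median of 51, and no position fell in 2 member regions.

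DNA methylation was measured in micro-dissected dentate gyrus, the part of the hippocampus that holds the granule neurons, by reduced representation bisulfite sequencing (RRBS), which reads the CpG-rich fraction of the genome. All 15 animals were female C57BL/6JRj mice aged 7.5 months, with no altered gene named in the labels and free access to food and water. The 3 groups of 5 separate mice differed in their cages: 6 months of standard housing (standard), 6 months of environmental enrichment (enriched), or 3 months of enrichment and then 3 months of standard housing (withdrawal). The comparisons therefore address whether enriched cages go with another methylation level, and whether mice that have gone back to standard cages differ from either other group. No group was taken after 3 months of enrichment, so a difference that remains or is lost on return cannot be shown. Between withdrawal and enriched mice, the return to standard cages and the shorter time in enrichment cannot be told apart. The values are percentages of methylated reads per cytosine and strand without read counts, so the depth behind each value is unknown. Methylation is not expression and cannot check the labelled tissue. Dissected tissue mixes cell types, so a shift in the share of a cell type and a change within its cells cannot be told apart.

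Homeobox and Pax proteins bind DNA and set regional and cell identity in the embryo: LIM-homeodomain, Nkx, Dlx and Irx factors divide the neural tube and forebrain into domains, En1, En2, Gbx2, Pax2, Pax5 and Otx2 pattern the midbrain and hindbrain, and factors such as Six2, Pax8, Msx1 and Pitx1 also help to build the eye, kidney, limb, face and muscle. In mature cells most of these genes are silent, and their CpG-rich domains are commonly kept free of DNA methylation and held by Polycomb proteins. In the forebrain Emx1, Lhx2, Otx1, Meis1 and Meis2 act in the dorsal part, from which the hippocampus forms, whereas Dlx1, Dlx2, Dlx5, Dlx6, Lhx6, Lhx8 and Nkx2-1 act in the ventral part, which gives rise to inhibitory interneurons.

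Promoter windows of RefSeq (GRCm38.p6) were matched by symbol for 41 members, 52 windows in all, each 250 bases before to 50 bases after an annotated start. The windows below were chosen by their number of measured positions or by the p at the gene end, not by their methylation. En1 and Tlx3 had the most measured positions, and Six4 had the smallest p at its gene end in the comparison of withdrawal with standard mice. Letters run 5′ to 3′ on the gene's strand, and capitals mark a CG with a measured value on at least 1 strand.
En1 promoter, chr1:120602237-120602536, plus strand: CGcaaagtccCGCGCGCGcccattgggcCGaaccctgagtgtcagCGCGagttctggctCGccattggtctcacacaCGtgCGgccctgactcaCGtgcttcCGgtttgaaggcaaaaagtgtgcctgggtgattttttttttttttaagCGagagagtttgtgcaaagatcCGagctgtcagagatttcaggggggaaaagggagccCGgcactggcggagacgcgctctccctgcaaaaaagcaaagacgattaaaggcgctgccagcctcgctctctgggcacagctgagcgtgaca
Tlx3 promoter, chr11:33203539-33203838, minus strand: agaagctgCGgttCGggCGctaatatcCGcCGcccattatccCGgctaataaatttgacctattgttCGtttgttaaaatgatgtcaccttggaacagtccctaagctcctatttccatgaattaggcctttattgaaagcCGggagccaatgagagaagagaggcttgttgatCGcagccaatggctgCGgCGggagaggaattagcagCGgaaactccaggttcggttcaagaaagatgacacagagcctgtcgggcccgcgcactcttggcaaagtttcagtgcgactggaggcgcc
Six4 promoter, chr12:73113196-73113495, minus strand: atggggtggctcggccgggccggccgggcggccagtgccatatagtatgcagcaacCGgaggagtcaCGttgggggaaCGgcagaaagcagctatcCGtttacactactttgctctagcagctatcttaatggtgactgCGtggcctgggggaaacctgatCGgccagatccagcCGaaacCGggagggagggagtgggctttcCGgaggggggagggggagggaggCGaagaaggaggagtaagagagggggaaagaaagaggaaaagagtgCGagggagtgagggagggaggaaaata

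In the En1 window, which holds 23 CG, 16 had a value; the 23 strand positions averaged 2.54% methylation, and the highest stood at 7.11%. The Tlx3 window had values at 12 of 18 CG, with a mean of 2.50% and a highest position at 10.4%. Of the 16 CG of the Six4 window 11 were measured, with a mean of 1.38% and a highest position at 7.05%. The unmeasured CG, in lower case, lie toward the 3′ end of the En1 and Tlx3 windows, around the annotated start. In the Six4 window they lie at the 5′ end, away from the start. Emx1 had the smallest gene-end p between withdrawal and enriched mice, but none of the 37 CG of its window was measured, so its sequence is not shown.

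The motif searched in all windows was CG, which reads the same on both strands. Member windows held a median of 17.5 CG (range 4 to 42), and 44 of 52 (84.6%) had at least 10, against 57.3% of 21045 windows of all protein-coding genes. Every member window had at least 1 CG, as had 95.5% of all windows. In the 26 member windows with values, 219 positions in all, the median methylation was 1.93%. Of these windows 25 stood under 10%, the highest at 10.7% and none over 50%. Windows of all genes had a median of 1.45%, with 90.9% under 10% and 2.90% over 50%, so low promoter levels were shared with most genes.

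Of the 3347 member positions, 92.3% had a mean methylation under 20% over the mice, 5.26% lay between 20% and 80%, and 82 (2.45%) exceeded 80%. Across the 306981 positions in or near any protein-coding gene, 66.1% were under 20% and 19.5% over 80%. The mean was 7.68% in members and 27.2% over all genes. The 39 genes of the Hox clusters, a comparison list, had 98.1% of 1441 positions under 20% and none over 80%, with a mean of 4.52%. A comparison list of 82 other homeobox and related genes had 81.3% of 3865 positions under 20%, 6.88% over 80% and a mean of 14.6%. These are descriptions of lists of names, and no test of the lists was made.

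A gene end was defined as the 1 kb on either side of both ends of the annotated gene, and the gene body as the rest of its inside. Over all positions, gene ends of members (1132 positions) averaged 3.28% with 98.8% under 20%, and bodies (1999 positions) averaged 9.91% with 88.9% under 20%. The 216 positions outside the genes, between 1 kb and 2 kb away, averaged 10.1%. With at least 3 positions measured in all 15 mice, 24 members had a gene-end value. These ranged from 1.73% in Lhx1 to 9.23% in Dlx1, all under 10%, with a median of 3.76%. The 4207 gene ends measured in this way over all genes had a median of 2.06%, and 81.7% were under 10%.

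In gene bodies the values of members and of all genes lay furthest apart. The 35 member bodies had a median of 6.44%, and 22 of them (62.9%) were under 10%, whereas the 4683 bodies of all genes had a median of 54.4%, with 17.2% under 10%. Only Six4 and Pax5 exceeded 50% (5.71% of members), against 53.3% of all bodies. Whole regions gave medians of 6.20% for 46 members and 22.5% for 8349 genes. In the comparison lists the body median was 8.47% in 44 other homeobox genes and 4.23% in 13 Hox genes.

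Gene length accompanied this difference in part. In genes under 10 kb the median body was 4.51% in 14 members and 7.01% in 312 genes of all kinds. Between 10 and 50 kb it was 9.53% in 13 members and 53.02% in 1593 genes, and above 50 kb it was 15.9% in 8 members and 57.7% in 2778 genes. Distance from the gene start, taken for genes with a known strand, showed how far the low levels reached. In the first kb inside the gene, 383 member positions averaged 2.27% and all genes 4.50%. From 1 to 5 kb the means were 5.24% and 16.5%, and from 5 to 20 kb they were 6.55% (826 positions in 25 members) and 46.6%. Beyond 20 kb the members approached the other genes: 46.8% against 55.7% from 20 to 50 kb, and 46.3% against 57.9% further in. Those 2 distance classes rested on 45 positions of 8 members and 136 positions of 5 members.

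**Figure D1:**
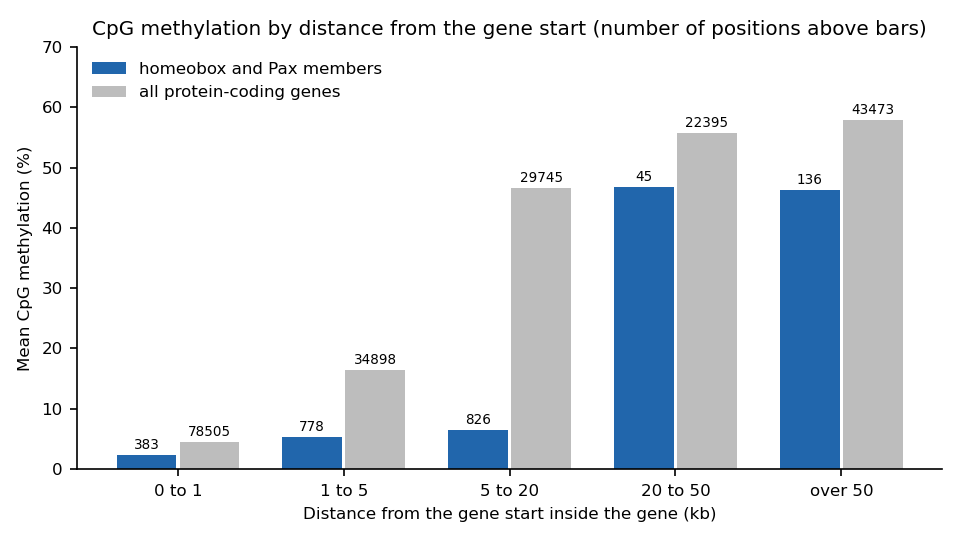
Mean CpG methylation (%) of positions inside genes, by distance from the gene start in kb, for member genes (blue) and all protein-coding genes (grey); numbers above the bars count positions. Member positions average 6.55% at 5 to 20 kb, where all genes average 46.6%, and 46.8% at 20 to 50 kb.

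Among the 15 members with both values, the gene end was lower than the body in 13 (86.7%), with a median difference of -6.95 percentage points. Over all protein-coding genes this held in 1004 of 1147 (87.5%), but with a median difference of -40.8 points. Six4 had the widest difference among members, -94.0 points, with an end at 2.92% and a body at 96.9% that rests on 4 positions. Nkx6-1, a factor of ventral neural progenitors and pancreatic beta cells, went the other way, with an end of 7.82% and a body of 2.35%. Irx3, also a neural tube patterning factor, had 7.28% at its ends and 4.12% in its body, but over all its positions the order turned, with 3.07% and 8.06%. For Nkx6-1 it held over all positions (3.92% and 2.10%). When every position was used whether or not all mice had it, the end was lower in 36 of 42 members, and the median difference shrank to -2.53 points.

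**Figure D2:**
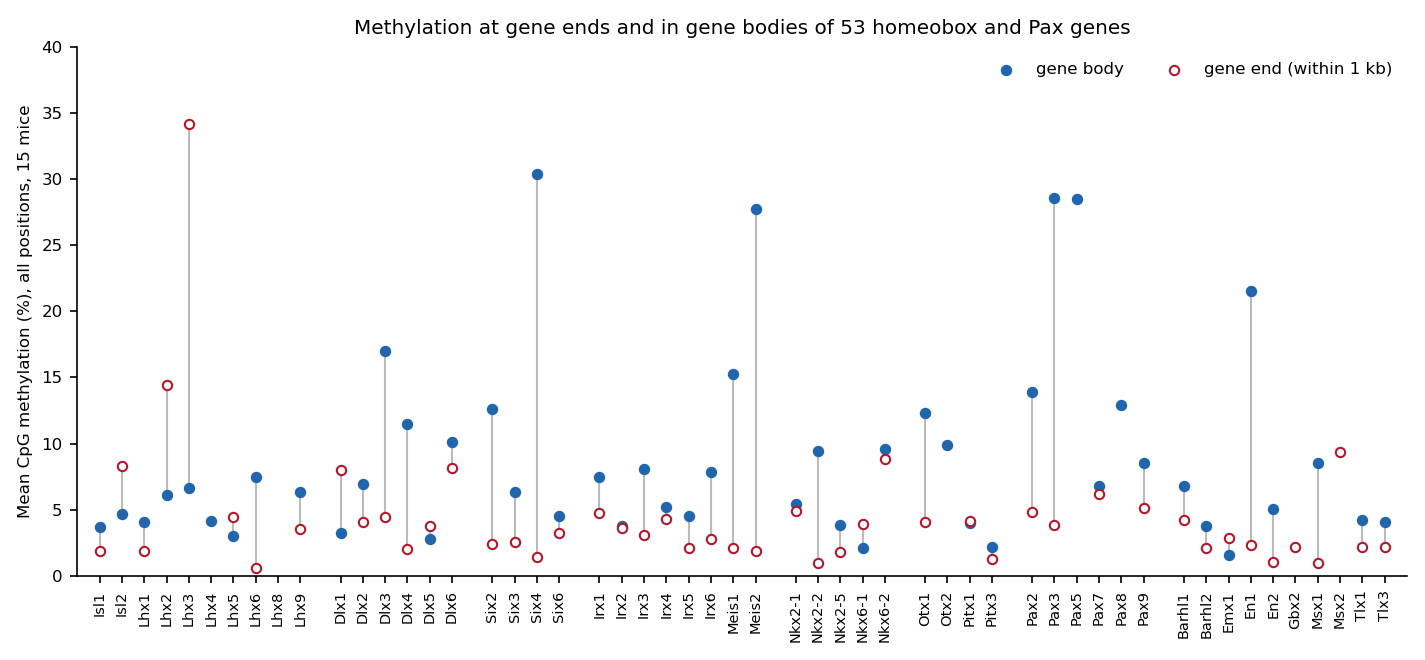
Mean CpG methylation (%) over all measured positions and 15 mice at the gene end (open red) and in the gene body (filled blue) of each member, grouped by family. The Lhx3 gene end at 34.2% is 1 position, Lhx8 has neither value, and most members keep both values under 10%.

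By family, the LIM-homeodomain genes, which specify motor neurons, interneurons and cortical progenitors, were uniformly low. Their 693 positions averaged 5.20%, from 2.41% in Lhx8, over Lhx1 (3.13%), Lhx5 (3.37%), Isl1 (3.96%), Isl2 (4.75%), Lhx9 (5.46%), Lhx6 (6.43%), Lhx2 (6.71%) and Lhx4 (7.42%), to 7.60% in Lhx3. The 6 positions over 80% were 1 in Lhx6 and 5 in Lhx4, of which 4 lay outside that gene. Lhx3 shares its region with Qsox2, and its end at 34.2% is a single position.

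Nkx genes were similar, with 252 positions averaging 6.08%. Nkx2-5, a heart factor, stood at 3.21%, Nkx6-1 at 3.29%, Nkx2-1, needed for the ventral forebrain, thyroid and lung, at 4.98%, Nkx2-2, a factor of ventral progenitors and the oligodendrocyte lineage, at 7.94%, and Nkx6-2 at 9.28%. The Dlx genes averaged 6.39% over 197 positions, with none over 80%. Dlx5 stood at 2.90%, Dlx2 at 4.58%, Dlx1 at 5.52%, Dlx4 at 6.21%, Dlx6 at 9.11% and Dlx3, a factor of skin, bone and placenta, at 12.0%.

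The paired and Otx-like genes averaged 5.27%: Pitx3, a factor of midbrain dopamine neurons, was the lowest member of all at 1.63%, followed by Pitx1 (4.02%), Otx1 (6.34%) and Otx2 (8.35%). The remaining ANTP-class genes averaged 4.70% over 537 positions, again with none over 80%. Emx1 stood at 2.10%, Tlx3 at 2.55%, Barhl2 at 2.71%, Gbx2 at 2.81%, Tlx1 at 3.36%, En2 at 3.53%, En1 at 5.10%, Barhl1 at 6.73%, Msx1 at 9.84% and Msx2 at 11.9%. In these families low values extended over nearly all positions, with 95.7% and 95.9% under 20%.

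The TALE-class genes split by member. The Irx genes, which pattern the neural tube and heart, ranged only from 2.99% in Irx6 to 5.90% in Irx1, with Irx5 at 3.17%, Irx2 at 3.69%, Irx4 at 4.84% and Irx3 at 5.44%. Meis1 and Meis2, cofactors of Hox and Pbx proteins, reached 9.20% and 20.03% and held all 28 TALE positions over 80%. The 4 members of the sine oculis family averaged 8.63%: 3.49% in Six6, 6.68% in Six3, 8.16% in Six2 and 19.3% in Six4. Pax genes were the highest family, with a mean of 13.6% over 547 positions and 39 positions over 80%. Pax7 stood at 6.75%, Pax9 at 7.05%, Pax2 at 12.6%, Pax8 at 12.9%, Pax3 at 17.3% and Pax5 at 28.5%. Pax5, known for B-cell commitment and midbrain patterning, was the highest member of the list.

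In 45 of 53 members the mean over all positions was under 10%, and in 16 members every position was under 20%. These 16 were Barhl2, Dlx5, Dlx6, Emx1, En2, Gbx2, Irx2, Irx6, Isl1, Lhx1, Lhx8, Nkx2-1, Nkx2-5, Pitx3, Six6 and Tlx3. By role, the 7 ventral telencephalon genes averaged 5.43% over 236 positions with 1 over 80%. The 5 dorsal telencephalon genes averaged 11.5% over 474 positions with 28 over 80%, all in Meis1 and Meis2. The other 41 members averaged 7.19%. Each member was placed in 1 group only. Lhx5, described below as acting in the developing forebrain and hippocampus, was counted among the other 41. The median gene was 4.98% in the ventral, 6.71% in the dorsal and 5.46% in the other group, so the higher dorsal mean came with the 2 Meis genes; Emx1, in the same group, was among the lowest of all.

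The 82 positions over 80% lay in 12 genes, 75 in bodies, 7 in the outer flank and 0 at gene ends, and Meis2 (25), Pax2 (17) and Pax5 (14) held 56 of them. In Meis2, a gene of 206 kb at chr2:115861264-116067537, they lay 51.8 to 202 kb from the start. In Pax2 (chr19:44746601-44838269) the nearest stood 25.9 kb in and in Pax5 (chr4:44524748-44710694) 10.9 kb in. Meis1, at chr11:18880428-19019651 and 139 kb long, had 3 such positions among 122, from 40.3 kb on, although it is also long. Six4 (chr12:73099609-73114031) had 4 at about 12.2 kb and 3 upstream of its start, the farthest at -1.58 kb. The Six4 region also holds part of Mnat1. Lhx4 had 5, Pax3 5, Pax7 2, and Lhx6, Nkx6-2, Pax9 and Six3 1 each.

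Measured in all mice, 5 bodies exceeded 20%: Six4 at 96.9%, Pax5 at 58.8% (15 positions), Six2, which maintains kidney progenitors, at 31.0% (7 positions), Meis2 at 27.0% (17 positions) and Pax8, a thyroid and kidney factor, at 24.7% (5 positions). A further 8 lay between 10% and 20%. These levels depend on which positions are complete. Over all body positions Six4 stood at 30.4%, Pax5 at 28.5%, Meis2 at 27.8%, Six2 at 12.6% and Pax8 at 12.9%, while Pax3 (28.6%) and En1 (21.6%) also exceeded 20%. The lowest bodies were Nkx6-1 at 2.35%, Nkx6-2 at 2.48%, Lhx5 at 2.52% and Lhx6 at 2.63%. Of the positions over 80%, 21 in 7 genes had a value in every mouse. Their mean was 91.2% ± 3.25 (SD, n = 5) with standard housing, 92.0% ± 3.65 with enrichment and 90.6% ± 1.13 after withdrawal, and the mice of the groups overlapped.

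**Figure D3:**
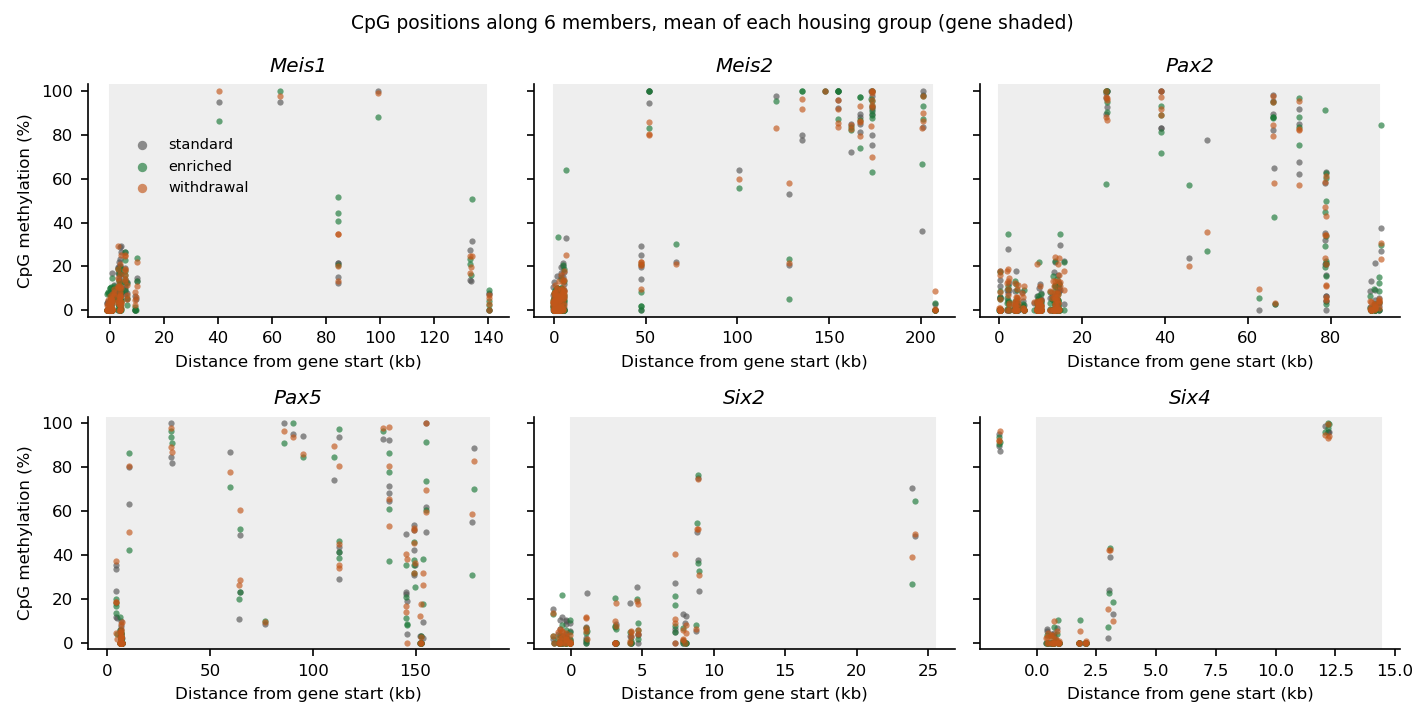
CpG methylation (%) of single positions against distance from the gene start (kb) in Meis1, Meis2, Pax2, Pax5, Six2 and Six4, each point the mean of a housing group and the gene shaded grey. Most positions near the start lie low in all groups, while positions over 80% begin 51.8 kb into Meis2 and 25.9 kb into Pax2. In Six4, 3 positions over 80% lie upstream of the start, the farthest at -1.58 kb.

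Housing was compared on the positions with a value in all 15 mice, 643 of the 3347. Dlx5, Dlx6, En2, Irx6, Lhx8 and Pitx3 had none and Tlx1 had 2, which left 46 members tested as regions, 24 as ends and 35 as bodies. Member positions with a value numbered 2698 ± 652 (SD, n = 5) with standard housing, 2782 ± 363 with enrichment and 3009 ± 159 after withdrawal. Standard mouse 1 had the fewest, 1543. Without that mouse 1004 member positions would have been complete. The regions, of Gbx2, Pax9, Six4, Pitx1, Pitx3, Lhx3 and Nkx6-2, also take in part of another protein-coding gene.

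The mean over the 46 member regions was 10.02% ± 0.438 (SD, n = 5 mice) with standard housing, 10.1% ± 1.39 with enrichment and 10.8% ± 1.14 after withdrawal. Gene ends averaged 4.13% ± 0.794, 4.70% ± 0.669 and 5.07% ± 1.27, and bodies 13.7% ± 0.706, 13.1% ± 1.11 and 14.1% ± 0.651. The individual mice overlapped in each of these comparisons. The highest enriched mouse (12.3% over regions) stood above every standard mouse (9.56% to 10.6%), and the lowest enriched mouse (8.59%) below them.

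**Figure D4:**
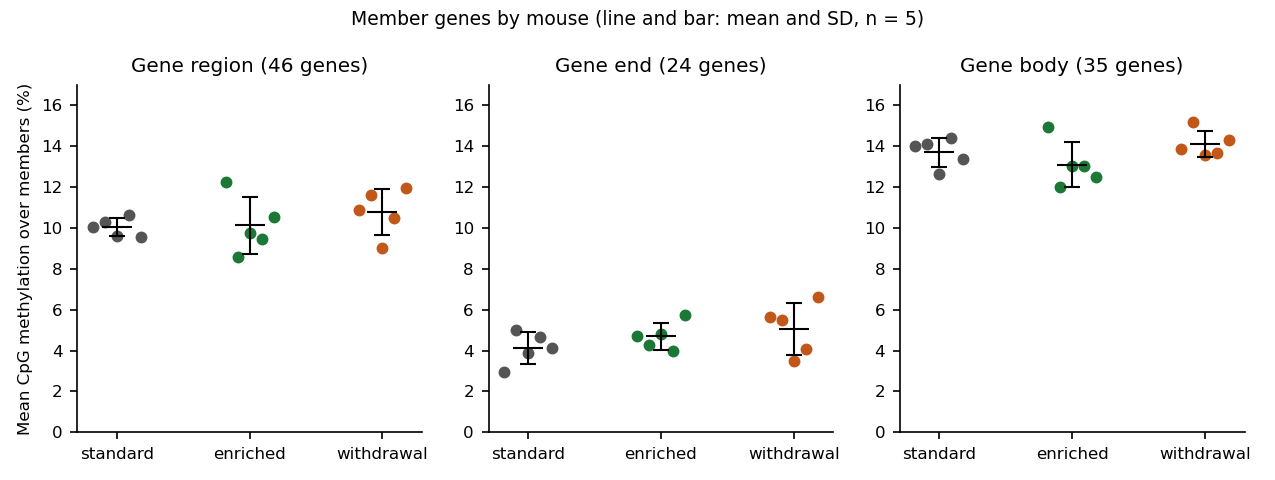
Mean CpG methylation (%) over the member gene regions, ends and bodies in each mouse, by housing group, with the group mean and SD (n = 5). The groups overlap in every panel, with region means of 10.02%, 10.1% and 10.8%.

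No member differed between housing groups at an adjusted p under 0.05 (limma, two-sided, Benjamini-Hochberg over all genes). Between enriched and standard mice, 0 of 46 member regions were called, beside 1 of 8349 genes (0.012%). For gene ends the count was 0 of 24 members and 0 of 4207 genes (0%), and for bodies 0 of 35 members and 2 of 4683 genes (0.0427%). In withdrawal against standard and in withdrawal against enriched mice, no region, end or body was called in members or over all genes (0% each). Single positions gave 0 of 585 members and 0 of 100562 in each of the 3 comparisons (0%).

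Counts at an unadjusted p under 0.05 were close to those of all genes. In enriched against standard mice 4 of 46 member regions passed, 2 higher and 2 lower, where 6.04% of all regions did (3.41% higher, 2.62% lower). In withdrawal against standard mice 3 passed, all higher (5.34% of all regions, 3.93% higher and 1.41% lower), and in withdrawal against enriched mice 3, also all higher (4.84%, 3.26% higher and 1.58% lower). No gene end of 24 passed in any comparison, where 5.37%, 4.85% and 5.13% of all ends did. Bodies passed in 2, 1 and 3 of 35 members, with 6.26%, 5.19% and 4.19% of all bodies. Of the 585 single positions 20, 30 and 27 passed, and over all positions 5.15%, 4.42% and 4.3%. Each group enters 2 of the 3 comparisons, so these counts are not independent.

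The 2 members with the smallest p between enriched and standard mice were Barhl2 and En1, and both were lower in enriched mice without overlap. Genes picked for a small p tend to separate, and the share of all regions that do so was not counted. Barhl2 (chr5:106452523-106458166), a factor of commissural and retinal neurons, was measured at 5 positions in its body. Its level was 7.64%, 4.50%, 7.40%, 7.04% and 5.34% in the standard mice and 2.05%, 2.55%, 1.94%, 4.32% and 2.84% in the enriched mice. The withdrawal mice, at 6.26%, 7.69%, 3.66%, 4.31% and 4.21%, overlapped both. The difference between enriched and standard mice was -3.64 percentage points, or -0.61 ± 0.15 (SE) on the log2 ratio scale (adjusted p = 0.712, limma). All 84 Barhl2 positions had a value in at least 3 mice per group. For each mouse, deviations from each position's mean over mice were averaged over its measured positions, and the mean of all positions was added. With these values the sign turned: standard mice averaged 2.25% ± 0.851 (SD, n = 5) and enriched mice 3.08% ± 1.20, a log2 ratio difference of 0.16. The values of En1, Lhx5, Irx5, Lhx3 and Isl1 over more positions were formed in the same way.

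En1 (chr1:120602487-120607991), which patterns the midbrain and hindbrain, was read at 14 positions, 12 of them at its ends. The standard mice stood at 11.4%, 6.88%, 5.70%, 6.85% and 9.89% and the enriched mice at 4.27%, 3.88%, 4.54%, 1.85% and 3.30%. Withdrawal mice stood at 3.22%, 4.69%, 4.59%, 6.93% and 7.80%, between and across the other groups. The enriched minus standard difference was -4.57 points, or -0.67 ± 0.17 (SE) on the log2 ratio scale (adjusted p = 0.712, limma). With 85 positions it kept its sign at -0.37, with an adjusted p of 0.846 in a range of 0.362 to 1 over the alternatives (limma). At the 12 gene-end positions alone the groups overlapped, with standard mice from 2.20% to 5.37% and enriched mice from 0.347% to 2.70% (adjusted p = 0.865, limma). Over the 14 positions the means were 8.13% in standard and 3.57% in enriched mice, and 3.81% and 1.86% over the 12 end positions. The 2 body positions therefore carried most of the difference. In the En1 promoter window printed above, the group means were 2.42%, 2.68% and 2.42% in standard, enriched and withdrawal mice.

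Lhx5 (chr5:120431886-120441457), which acts in the developing forebrain and hippocampus, was read at 7 positions. It stood at 1.35%, 1.89%, 0.526%, 3.94% and 3.40% in standard and at 5.70%, 4.12%, 4.30%, 3.62% and 9.12% in enriched mice. Only enriched mouse 4 lay within the standard range. The difference of 3.15 points did not pass (adjusted p = 0.821, limma), and over 108 positions the groups averaged 2.96% ± 0.978 and 3.42% ± 0.984. Without standard mouse 1, on positions complete in the other 14 mice, the log2 ratio difference was -0.016, so its direction depends on the positions used.

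Irx5 (chr8:92357796-92361456), which acts in the retina and heart, had the smallest region p in both comparisons with withdrawal mice, at 9 body positions. Withdrawal mice stood at 4.13%, 11.1%, 5.75%, 12.8% and 6.51%, enriched mice at 5.03%, 3.32%, 0.648%, 2.49% and 0%, and standard mice at 7.21%, 2.79%, 2.68%, 2.10% and 3.67%. In 4 of 5 withdrawal mice the level was above every enriched mouse. The withdrawal minus enriched difference was 5.76 points (log2 ratio 0.92 ± 0.25 SE, adjusted p = 0.769) and the withdrawal minus standard difference 4.37 points (0.63 ± 0.25, adjusted p = 0.932), both by limma. Over 66 positions the group means were 1.86% ± 1.25 (SD, n = 5) with standard housing, 3.50% ± 1.98 with enrichment and 4.03% ± 0.815 after withdrawal.

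Lhx3, a pituitary and motor neuron factor, ran from 2.50% to 7.73% in withdrawal and from 0% to 3.90% in enriched mice at 6 positions, a difference of 3.71 points (adjusted p = 0.995, limma). Isl1, which specifies motor neurons, ran from 4.05% to 9.34% in withdrawal and from 2.07% to 9.15% in standard mice at 5 positions, a difference of 3.12 points (adjusted p = 0.932, limma). Both pairs of groups overlapped. Over all 28 Lhx3 positions the withdrawal mean was 8.15% ± 2.29 (SD, n = 5) and the enriched mean 7.36% ± 3.07, and averaging both strands turned the log2 ratio difference to -0.00197. Over all 21 Isl1 positions the withdrawal mean was 4.71% ± 1.13 and the standard mean 4.21% ± 2.29.

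**Figure D5:**
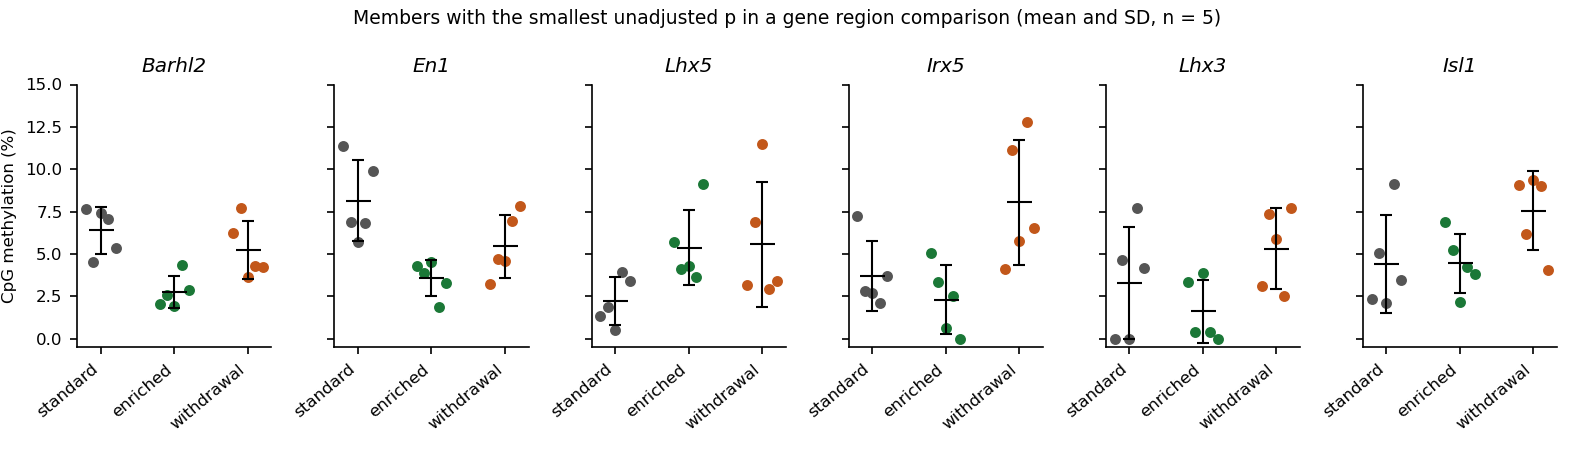
CpG methylation (%) of the gene region in each mouse for Barhl2, En1, Lhx5, Irx5, Lhx3 and Isl1, by housing group, with the group mean and SD (n = 5). The 6 genes were picked for their small p. Standard and enriched mice separate in Barhl2 and En1, and no member passed the adjusted test. The share of all regions that separate in this way was not counted.

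Among gene ends, the smallest p-values came with overlapping groups. Irx4, a ventricle factor, was listed at 0% in 3 standard mice and at 6.90% and 16.7% in the others, and ran from 5.82% to 16.7% in enriched mice (adjusted p = 0.865, limma). Six3, an eye and forebrain factor, ran from 1.33% to 10.7% in standard and from 2.30% to 19.1% in enriched mice. Dlx1 ran from 0% to 9.59% in standard and from 0% to 26.9% in withdrawal mice, and Six4 from 1.37% to 2.78% and from 2.26% to 5.16% (adjusted p = 0.936 for both, limma). Between withdrawal and enriched mice the smallest belonged to Emx1, with 0.556% to 6.84% against 0.50% to 4.13%, then Irx1, with 3.70% to 16.6% against 0% to 13.2%, and Nkx2-1, with 2.91% to 7.77% against 0% to 8%. All of these ranges overlapped. The Irx1 difference turned to -0.074 on the log2 ratio scale when partly measured positions were included, and the Emx1 difference was 0 by the median over positions. Emx1 was the only dorsal telencephalon gene and Dlx1 and Nkx2-1 the only ventral ones named by the smallest gene-end p-values.

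Among bodies not described above, Pax3, a neural crest and muscle factor, ran from 2.39% to 8.73% in standard and from 4.85% to 12.7% in enriched mice at 10 positions, a difference of 4.49 points (adjusted p = 0.745, limma). Dlx3 went the other way at 8 positions, from 3.23% to 15.2% in standard and from 0% to 5.13% in enriched mice (-4.27 points, adjusted p = 0.808, limma). Isl2 ran from 1.87% to 5.09% in standard and from 4.45% to 6.97% in withdrawal mice at 17 positions, and 4 of 5 withdrawal mice were above every standard mouse (2.35 points, adjusted p = 0.994, limma). None of these passed the adjusted test.

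At single positions, the Nkx2-2 gene (chr2:147176485-147195434) held a pair of positions with small p-values in different comparisons. The share of all single positions whose groups separate without overlap was not counted. The plus-strand position 147189712 in its body stood at 16.98%, 37.2%, 6.52%, 24.7% and 8.11% in enriched mice and at 4.55%, 0%, 4.95%, 0% and 4.04% in standard mice, without overlap (16.0 points, adjusted p = 0.770, limma). The 8 other positions within 100 bases averaged 14.4% in enriched and 6.60% in standard mice. The minus-strand position 147180875 stood at 44.7%, 25%, 12.9%, 31.2% and 50% in withdrawal mice and at 0% in all standard mice but standard mouse 2, at 25%. Enriched mice ran from 0% to 11.1%, below every withdrawal mouse. Its withdrawal minus standard difference was 27.8 points (adjusted p = 0.692, limma). The adjusted p was 0.187 without standard mouse 2 and ran from 0.187 to 0.965 over all alternatives (limma). Its 7 neighbours averaged 12.6%, 25.8% and 22.4% in standard, enriched and withdrawal mice, so they did not follow the same order.

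In Pax5, the minus-strand position 44679379, 31.3 kb into the gene, was fully methylated (100%) in all 5 standard mice and stood at 88.1%, 90.9%, 91.4%, 94.3% and 82.1% in withdrawal mice, without overlap (-10.6 points, adjusted p = 0.735, limma). Its 2 neighbours within 100 bases did not show the same order: 83.1%, 92.3% and 92.4% in standard, enriched and withdrawal mice. In Irx5, the minus-strand position 92358931 on chromosome 8 was at 0% in all enriched mice, at 0% in 4 standard mice and at 1.85% in the fifth, and at 0%, 32.8%, 18.5%, 11.1% and 8.42% in withdrawal mice. Its adjusted p was 0.881 against enriched mice (limma), and ran from 0.0689, without withdrawal mouse 1, to 0.979 over the alternatives (limma). That lower value was the smallest of any member in the settings tried. The 7 neighbours within 100 bases averaged 3.26%, 2.01% and 6.75% in standard, enriched and withdrawal mice.

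The remaining positions with small p-values were 95121664 on chromosome 11 in Dlx3, at 25%, 18.9%, 0%, 23.8% and 0% in standard and 0% in all enriched mice, 72629828 on chromosome 13 in Irx2, from 0% to 11.8% in standard and 0% in all enriched mice, and 55547155 on chromosome 9 at the end of Isl2. The Isl2 position ran from 7.02% to 43.1% in enriched and from 0% to 11.1% in withdrawal mice (-20.1 points, adjusted p = 0.976, limma). It had no measured neighbour within 100 bases. At the Irx2 position (adjusted p = 0.876, limma) the cytosine of the same CG on the other strand averaged 0% in standard and in enriched mice. With it, the 8 other positions within 100 bases averaged 2.41% in standard and 3.99% in enriched mice, the reverse order. At the Dlx3 position (adjusted p = 0.817, limma) the 7 others kept the order, with 6.27% and 3.32%. With no read counts, a value of 0% or 100% at such a position can rest on few reads.

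Outside CpG, 13302 cytosines of the second part of the table fell in member regions and averaged 0.596% methylation, between 0.372% and 1.12% per gene. The group means were 0.590% ± 0.0289 (SD, n = 5) with standard housing, 0.595% ± 0.0282 with enrichment and 0.610% ± 0.0354 after withdrawal, and the mice of the groups overlapped.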

How the data were processed

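The authors deposited 1 table that lists percent methylation for each cytosine on its strand, with a column for each mouse. Per the submitters' processing notes, Trim Galore 0.4.0, cutadapt 1.8.1, Bismark 0.16.1, methylKit 1.5.2 and build mm10 were named, without their settings; a coverage minimum is not given in the sources used here. Without read counts no binomial interval could be given and no coverage filter applied.

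The table's positions run through the chromosomes in a pair of successive blocks; the first was taken as CpG. Positions were assigned to RefSeq GRCm38.p6 gene spans; transcript, exon and intron annotation was not used here, so the start of a gene is that of its longest span. All 47378 CpG positions inside RefSeq promoter windows lay at a CG. A feature was the mean percentage over at least 3 positions with a value in all 15 mice; single positions needed a range of at least 5 points. Features were transformed as log2((percent + 5)/(100 - percent + 5)). The offset damps changes near 0 and 100 compared with the same ratio without it. A change of the same number of points still counts for more there than at middle levels. The transformed values were tested with limma 3.58.1 in R 4.3.3 (variance trend, 3 groups of 5 in 1 fit, two-sided, Benjamini-Hochberg over every feature of that kind, threshold 0.05). The script was tested on simulated data in which 200 features were raised by 10 points in enriched mice. It recovered 65.5% of such regions, 83% of ends, 47.5% of bodies and 0.5% of single positions. With 20 points it recovered 21% of single positions. Changes of 10 points could thus be missed in every kind of feature, and at single positions also changes of 20 points. Smaller changes, and falls, were not simulated.

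The members and comparison lists were chosen with earlier results of these data known. Named genes were the 3 members with the smallest p per comparison and feature kind, the 6 highest and 3 lowest gene ends, and the 4 highest and 4 lowest bodies. Alternatives concerned missing values, strands, positions per gene, the gene-end width, the summary, the offset, the variance trend, a replicate block and leaving out each mouse. Using positions complete in the other 14 mice, without standard mouse 1, was added after seeing the data.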

Additional observations from a re-analysis of the deposited data

Results flagged for a closer look

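A single mouse stood apart in 7 of 96 groups of 5 values examined. The rule flags about 1 in 20 groups of independent normal values, a rate that does not apply here. Most groups come from features picked for a small p. Where all other mice of a group stand at 0%, any value above it is flagged. At the Irx1 gene end, standard mouse 4 was listed at 0%, with the next standard mouse at 7.64%. At the Nkx2-1 gene end, withdrawal mouse 2 stood at 2.91% and the next at 6.36%. Withdrawal mouse 3 was the only withdrawal mouse with methylation at the Dlx3 position 95121664 (3.03%), as was standard mouse 5 among standard mice at the Irx5 position 92358931 (1.85%) and standard mouse 2 at the Nkx2-2 position 147180875 (25%). Standard mouse 1 had values at 1543 member positions, where the next standard mouse had 2857, and withdrawal mouse 4 had 3288, where the next had 2964.

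In data outside the CpG comparisons, 5 of 13302 non-CpG positions in member regions had a mean of at least 20%, against an average of 0.596%. They were position 155696945 (chromosome 1, plus strand) at Lhx4 with 29.5%, 44772648 (chromosome 19, minus) in Pax2 with 35.2%, 115894070 (chromosome 2, plus) in Meis2 with 20.5%, and 44532370 (minus) and 44624901 (plus) on chromosome 4 in Pax5 with 27.1% and 21.4%. The Meis2 and the first Pax5 position had values in all 15 mice, which ran from 5.97% to 40.2% and from 0% to 59.1%.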

How the results depend on the processing

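No member was called in any setting tried, with smallest adjusted p-values (limma) of 0.362 for regions, 0.592 for ends, 0.399 for bodies and 0.0689 for single positions. Of 342 named-gene values under other settings, among them the positions complete in the other 14 mice without standard mouse 1, 333 kept their direction and side of the threshold. When 1 mouse at a time was left out and the positions stayed those complete in all 15 mice, all 540 did. Part of this agreement was fixed in advance. The direction cannot change when the mouse left out belongs to neither group compared, without the variance trend, or with the replicate block. Barhl2, Irx5 and Lhx3 also enter with the same positions as region and as body. The cause of the changes listed next was not tested.

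With positions valued in at least 3 mice per group, the log2 ratio difference turned to 0.28 (body) and 0.16 (region) for Barhl2 between enriched and standard mice, to -0.22 and -0.096 between withdrawal and enriched mice, and to -0.074 for the Irx1 end. Averaging both strands gave -0.00197 for the Lhx3 region and body, the median over positions 0 for the Emx1 end, and the positions of the other 14 mice -0.016 for the Lhx5 region.

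Over all genes, the 2 bodies and 1 region called between enriched and standard mice became 0 and 0 with partly valued positions, averaged strands, at least 1 or at least 10 positions, the median, no variance trend, and the other 14 mice. With the replicate block they also became 0 and 0. The mouse numbers are only labels: deviations of same-numbered mice correlated between -0.029 and 0.044 over regions, and 2 of 15 mice correlated best with their own number. With gene ends of 500 bases 1 body was called between withdrawal and standard mice. Single positions called between enriched and standard, withdrawal and standard, and withdrawal and enriched mice numbered 3, 2 and 1 with an offset of 1 point and 3, 1 and 1 with the other 14 mice, and without a range filter 4 and 3 in the last pair of comparisons.

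The median end minus body difference was -2.71 points with partly valued positions (24 of 30 members lower), -3.41 with at least 1 position, -13.3 with at least 10 (1 of 1 lower), -3.31 by medians, -2.32 with the other 14 mice, and -11.9 with only the 5 prime end (8 of 8 lower). It was also lower in 8 of 8 with 500-base ends. By medians over positions the median region, end and body were 2.22%, 1.34% and 2.69%. The median end was 2.70% with at least 10 positions and 2.73% with 500-base ends, and the median body 11.4% with 2 kb ends. The mean end difference between withdrawal and enriched mice was -0.586 points with partly valued positions and -0.794 with at least 1 position. With at least 1 position, enriched minus standard was 1.58. With at least 10 positions, withdrawal minus standard was -0.456 for ends, and withdrawal minus enriched 0.143 for bodies.

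Leaving out 1 mouse at a time, calls over all genes in enriched against standard, withdrawal against standard and withdrawal against enriched mice ran from 0 to 3, 0 to 3 and 0 to 2 for regions, 0 to 2, 0 to 1 and 0 to 1 for ends, 0 to 2, 0 to 1 and 0 to 0 for bodies, and 0 to 7, 0 to 11 and 0 to 6 for single positions. In the same order the member means differed by -0.434 to 0.483, 0.457 to 1.19 and 0.263 to 1.18 points for regions, 0.280 to 0.798, 0.553 to 1.33 and -0.021 to 0.759 for ends, and -1.07 to -0.336, 0.135 to 0.574 and 0.738 to 1.47 for bodies. The end minus body median ran from -7.60 to -5.96.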

Other observations

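Genes that mark cell types of the dentate gyrus gave a further view of the same libraries, as methylation and not as expression. Prox1, a homeobox gene that defines granule neurons and is not a member, averaged 2.37%, 1.33% and 1.48% at its gene end in standard, enriched and withdrawal mice, and 11.5%, 8.13% and 11.8% in its body. Rbfox3, a neuronal marker, had 26.2%, 22.9% and 27.8% in its body. Mog, a myelin gene of oligodendrocytes, had 92.3%, 90.9% and 97.4% in its body, while the myelin genes Mag and Mbp had 93.2%, 86.1% and 89.3% and 8.30%, 10.2% and 8.77%. The astrocyte gene Slc1a3 stood at 1.35%, 1.59% and 1.94% at its ends and at 15.4%, 15.4% and 15.3% in its body, Aldh1l1 at 39.4%, 30.7% and 30.2% at its ends, and Aqp4 at 27.9%, 26.1% and 36.6% in its body. The order of the groups differed from marker to marker, and these are all the listed markers with enough complete positions. Their part in the member values was not tested.

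The comparison lists were also read for ends against bodies. The gene end was lower than the body in 9 of 19 other homeobox genes and in 3 of 7 Hox genes, with median differences of 0.512 and 0.992 points, against 13 of 15 members. No test of the difference between the lists was made.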
